A study of Mus musculus with 2 samples.

Results

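Mir132, Mir212, Mir182, Mir183, Mir96 and Mir21a are microRNA genes that other work linked to the response of adrenal cells to ACTH or to angiotensin II. These 6 genes of the 2202 in the deposited tables were chosen by name from that work, and all 6 were found in the annotation. Small RNA was sequenced from adrenal glands of female B6CASTF1/J mice, first-generation hybrids of the C57BL/6J and CAST/EiJ strains, aged 10 days and carrying no listed treatment or engineered allele. The 2 libraries, labelled biological replicates 1 and 2 and taken from the animals numbered 3 and 4, form 1 group and share a donor entry. No hormone was given, so the values describe basal levels and the agreement within each genomic cluster, not a response.

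MicroRNAs are short RNAs cut from a hairpin, and the seed, bases 2 to 8 of the mature strand, chooses which messenger RNAs are repressed. ACTH acts on the adrenal cortex through cyclic AMP and drives glucocorticoid synthesis, while angiotensin II acts on its outer zone and drives aldosterone synthesis. In rat adrenals, ACTH was reported to raise miR-132, miR-212, miR-182, miR-183 and miR-96, and in a human adrenocortical cell line angiotensin II was reported to raise miR-21. Mir132 and Mir212 are also known as targets of the cyclic AMP-responsive factor CREB in neurons. The Mir183, Mir96 and Mir182 cluster is known from sensory cells of the eye and inner ear, and Mir21a from stromal, immune and growing cells.

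The strands usually regarded as the active ones are shown because they define how the genes group. They are written 5′ to 3′ from RefSeq on build GRCm38.p6, with the seed in capitals.
miR-132-3p: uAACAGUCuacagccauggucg
miR-212-3p: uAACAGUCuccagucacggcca
miR-182-5p: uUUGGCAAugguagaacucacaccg
miR-96-5p: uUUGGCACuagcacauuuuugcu
miR-183-5p: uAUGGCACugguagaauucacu
miR-21a-5p: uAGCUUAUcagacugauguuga

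miR-132-3p and miR-212-3p shared their seed and their first 9 bases. Counted from 1 at the 5′ end, they differed by the substitutions A10C, C14U, U17C, U20C and G22A, with the base of miR-132-3p first. In the second cluster no seed was shared in full. miR-182-5p and miR-96-5p shared 6 of 7 seed bases and differed there by A8C, miR-183-5p and miR-96-5p shared 6 of 7 and differed there by A2U, and miR-182-5p and miR-183-5p shared 5 of 7. Over the whole strand, seed included, the order of likeness was another, since miR-182-5p matched miR-183-5p at 18 of 22 positions and miR-96-5p at 12 of 23.

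Whether the strands recur was searched among annotated microRNA transcripts only, not in the rest of the genome. Of the 12 annotated mature strands, none recurred in another of the 2202 microRNA transcripts, exactly or with up to 2 mismatches. The relatives nearest to miR-21a-5p are shown with the same marking.
miR-21c: uAGCUUAUcagacugguacaa
miR-21b: uAGUUUAUcagacugauauuucc
miR-21c has the miR-21a-5p seed and differed first at A16G, and miR-21b differed within the seed at C4U. Neither Mir21b nor Mir21c had a count in either library, and a count of 0 allows a level of up to 1.48 CPM in the first and 0.935 CPM in the second. CPM is the count of a gene per 1000000 counts assigned to microRNA genes in the library. The gene of miR-1271-5p, which has the seed of miR-96-5p, also had no count. Mir3475, whose 5p strand shares the seed of miR-96-3p, had 6 and 14 counts. The seed of miR-132-3p occurred in the RefSeq table only in the pair itself.

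Replicate 1 held 2023410 counts assigned to microRNA genes (38.3% of its reads) and replicate 2 held 3208821 (37.5%). A further 25.0% and 27.2% of reads aligned to several places and were left uncounted. Endothelial Mir126a made up 17.8% and 4.79% of the counts of the libraries, so every other share depends on it. The neuroendocrine list, which the adrenal medulla should express, summed to 27343 and 34204 CPM, led by Mir375. No list for the adrenal cortex was available, so that part of the tissue label was not checked. Mir122 of liver stood at 26733 and 9284 CPM, and the striated muscle list, led by Mir206, at 11315 and 4507 CPM. Both mark other organs, and both were lower in replicate 2. The muscle sum leaves out any reads shared between its numbered gene copies.

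Summed, the 6 members were 0.664% of counts in the first library and 1.39% in the second, and Mir21a made up 70.5% and 88.8% of those sums. The other 5 genes summed to 1957 and 1563 CPM. Detection was set at 10 CPM in both libraries, and 5 of the 6 genes passed it, against 302 of all 2202 genes (13.7%). Mir96 was the exception. Each read is a whole small RNA, so counts were not divided by gene length, and they compare reads, not molecules.

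**Figure D1:**
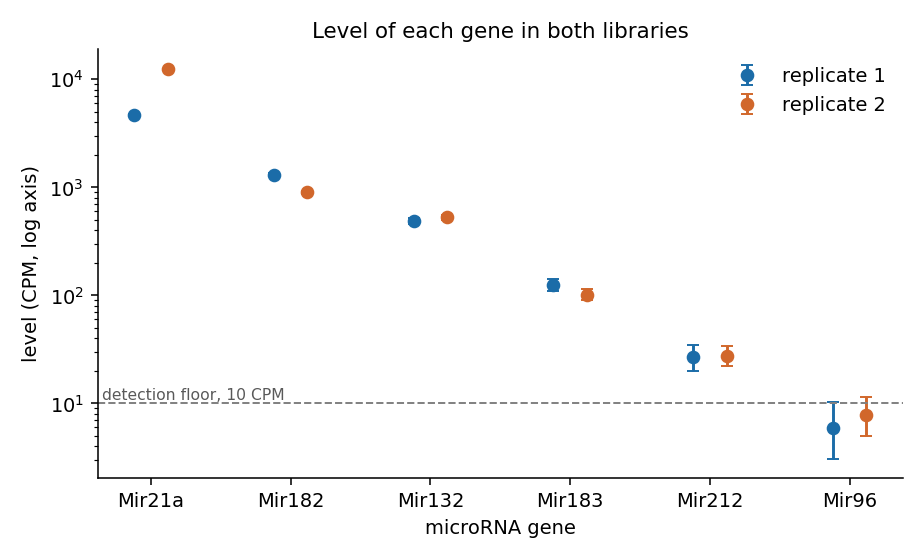
Level in CPM (log axis) of the 6 genes in replicates 1 and 2, ordered by mean level, with exact 95% intervals of each count and a dashed line at 10 CPM. Mir21a lies highest in both libraries and Mir96, at 5.93 and 7.79 CPM, lies below the line in both.

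Mir21a was counted 9479 times in replicate 1 and 39629 times in replicate 2, which gives 4685 CPM (exact 95% interval 4591 to 4780) and 12350 CPM (12229 to 12472). Its mean was 8517 ± 5420 CPM (SD, n = 2), and it ranked 39 of 2202 genes in replicate 1 and 22 in replicate 2. Replicate 2 was the high library.

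Mir182 followed with 1313 and 899 CPM in replicates 1 and 2, a mean of 1106 ± 293 CPM (SD, n = 2). It ranked 81 and 95. Here replicate 1 was the high library.

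Mir132 stood at 486 and 526 CPM in replicates 1 and 2, a mean of 506 ± 28.7 CPM (SD, n = 2), from 983 and 1689 counts. Its ranks of 127 and 120 were close.

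Mir183 stood at 125.5 and 102 CPM, a mean of 114 ± 16.7 CPM (SD, n = 2), and ranked 201 in both libraries. Mir212 stood at 26.7 CPM (20.0 to 34.8) and 27.7 CPM (22.3 to 34.1), a mean of 27.2 ± 0.741 CPM (SD, n = 2). Its intervals lay almost on top of each other. Mir96 had 12 and 25 counts, or 5.93 CPM (3.06 to 10.4) and 7.79 CPM (5.04 to 11.5). These counts are above the 3 that a count of 0 allows, and the intervals overlap.

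The order Mir21a, Mir182, Mir132, Mir183, Mir212, Mir96 was the same in both libraries, and no neighbours in it had overlapping values. The step from Mir21a to Mir182 was 3.57-fold in replicate 1 and 13.7-fold in replicate 2. The step from Mir182 to Mir132 was the narrowest in both libraries, at 2.70-fold and 1.71-fold. The steps below it lay between 3.56-fold and 5.17-fold. By mean level, Mir21a stood above 98.7% of annotated microRNA genes and Mir96 above 84.5%, most of which had no count. Genes with copies lost the reads they share, while no mature strand of the members recurred in another annotated microRNA transcript. The ranks and percentages of the members may therefore be too high.

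The genes whose 2 levels lay nearest to each member, by distance on log2(CPM + 1) over both libraries, were as follows. Mir193a (476 and 526 CPM), Mir501 and Mir330 were nearest to Mir132, at distances of 0.03, 0.03 and 0.23. Mir8114 (27.7 and 26.5 CPM), Mir365-1 and Mir384 were nearest to Mir212, at 0.08, 0.09 and 0.22. Mir326 (116 and 103 CPM), Mir496a and Mir679 were nearest to Mir183, at 0.12, 0.12 and 0.26. Mir434 (1315 and 847 CPM), Mir154 and Mir146 were nearest to Mir182, at 0.09, 0.19 and 0.27. The genes nearest to Mir21a were farther away, with Mir30a (6769 and 10254 CPM), Mir151 and Mirlet7e at 0.59, 0.72 and 0.81. Those nearest to Mir96 were Mir3076 (6.92 and 10.6 CPM), Mir3097 and Mir190b at 0.44, 0.62 and 0.65. A distance over 2 libraries of 1 group describes like levels only.

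Between the libraries, Mir21a was 2.73-fold higher in replicate 2 after TMM scaling, a log2 ratio of 1.45 (exact 95% interval 1.41 to 1.48). Log2 ratios are replicate 2 over replicate 1 with 1 CPM added, and intervals are without it. Given its summed count, the split of each gene between the libraries was tested exactly and two-sided against the scaled library sizes, with Benjamini-Hochberg adjustment over the 329 genes at 10 CPM or more in either library. It sets these 2 libraries against counting error and compares no conditions. The adjusted p of Mir21a was smaller than the calculation could represent.

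Mir182 was lower in replicate 2, with a log2 ratio of -0.50 (-0.58 to -0.42) and an adjusted p of 5.92e-37 by the exact test. Mir183 had a log2 ratio of -0.25 (-0.49 to -0.01), and its adjusted p of 0.0504 in the exact test missed the threshold of 0.05. Mir183 passed that threshold with unscaled library totals (adjusted p 0.0186, exact test). Mir132 was slightly higher in replicate 2, with a log2 ratio of 0.16 (0.05 to 0.28) and an adjusted p of 0.00702 in the exact test. That call was lost with unscaled library totals (log2 ratio 0.12), and the direction turned with totals that leave out Mir126a (log2 ratio -0.10), a scaling that also shifted the median of all tested genes by -0.26. Mir212 had a log2 ratio of 0.10 (-0.40 to 0.62) and an adjusted p of 0.763 in the exact test, and its ratio turned to -0.15 under the same scaling. Mir96 was under the floor in both libraries and was not among the genes tested. Its log2 ratio was 0.38, with an interval from -0.60 to 1.57.

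Of the 5 genes tested, 3 passed, which is no more than the 74.2% of all 329 genes that did. Mir21a and Mir132 were called higher in replicate 2, where 37.7% of all genes were, and Mir182 was called lower, where 36.5% were. A log2 ratio of 1 or more in size was reached by 1 of the 5, Mir21a, and by 22.2% of all genes. The median log2 ratio was 0.10 over the 5 genes and -0.01 over all genes tested. Mir21a had the 24th largest ratio of the 329.

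**Figure D2:**
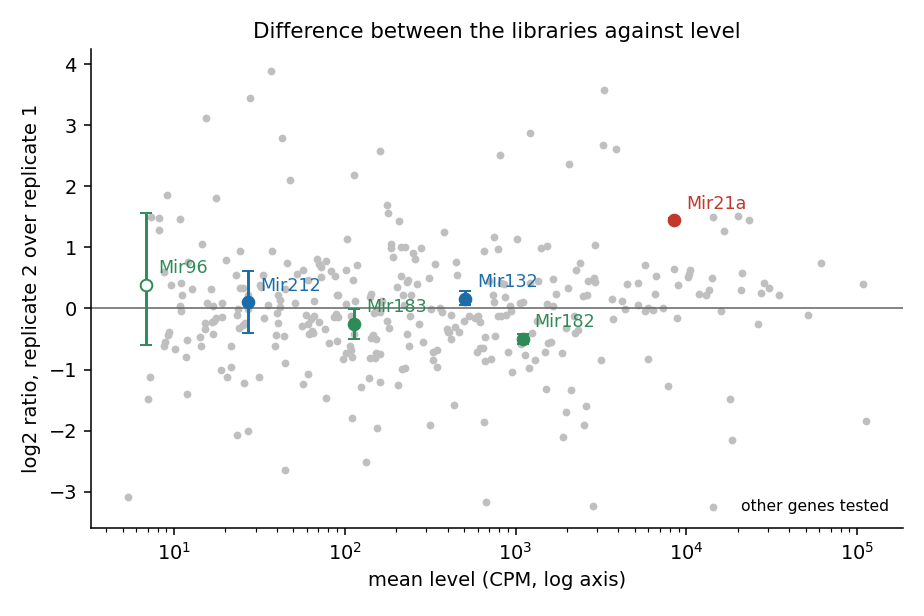
Log2 ratio of replicate 2 over replicate 1 against mean level in CPM (log axis) for the tested genes, with the members in colour, the others in grey, and exact 95% intervals. Mir96, drawn open, was not tested. Mir21a at 1.45 lies apart from the other members, which lie between -0.50 and 0.38.

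Markers of other cells differed between the same libraries, in which 37.7% of all genes tested were called higher in replicate 2 and 36.5% lower. The leukocyte list summed to 3895 and 5372 CPM in replicates 1 and 2, and of its 6 tested genes 5 were higher in replicate 2 and 1, Mir146, was lower. Its seventh gene, Mir146b, had 0 and 15 counts. The epithelial list, led by Mir203, summed to 742 and 3274 CPM, and all 7 of its genes were higher. The smooth muscle and stromal list, led by Mir143, summed to 31513 and 40245 CPM, with 2 genes higher and 2 lower. Mir214, lower, is also on the list of ACTH-lowered genes. These 3 sums were higher in the library in which Mir21a was higher, as were the neuroendocrine, neuron and retina sums. The part of these cells in the Mir21a difference was not tested. In bulk tissue, fewer cells of a type and less RNA per cell cannot be told apart.

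Mir182 was lower in the library in which the epithelial list was higher, and the part of that list in the difference was not tested. The retina list, which holds microRNAs of a tissue known for the Mir183, Mir96 and Mir182 cluster, summed to only 99.8 and 140 CPM, with 1 of its 2 tested genes higher and 1 not passing. The neuron list summed to 645 and 666 CPM, with Mir128-1 higher and 3 of 4 tested genes not passing. The 3 copies of Mir124a, which defines neurons, had at most 1 count. All genes of the neuron list are numbered copies. Reads that align to several copies were left uncounted, so the counts of Mir124a and the sum of the list may be too low. Lower in replicate 2 were Mir126a of endothelium (log2 ratio -1.84), Mir122 of liver (-1.48), all 4 tested striated muscle genes (median -1.74), 2 of 3 tested kidney genes (median -1.29), all 3 red blood cell genes (median -0.89) and Mir202 of the gonads (-1.24). Of 4 neuroendocrine genes, 1 was higher, 2 were lower and 1 did not pass (median -0.00365).

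Mir212 and Mir132 lie on the plus strand of chromosome 11 of mm10, at positions 75173388 to 75173478 and 75173682 to 75173747, 203 bases apart. Both are intronic in 1700016P03Rik, a noncoding gene on the same strand. Their hairpins are shown because each count sums every read from a hairpin, whichever arm it came from. The annotated mature arms are in capitals.
Mir132: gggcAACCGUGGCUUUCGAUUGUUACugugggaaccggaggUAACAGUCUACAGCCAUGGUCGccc
Mir212: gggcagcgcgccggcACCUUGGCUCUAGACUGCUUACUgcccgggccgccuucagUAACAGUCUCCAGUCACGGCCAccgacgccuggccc
The arms were not separated in the deposited counts.

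The pair kept its proportions between the libraries. Mir132 made up 94.8% of the pair's 1037 counts in replicate 1 (exact 95% interval 93.3 to 96.1%) and 94.99% of its 1778 counts in replicate 2 (93.9 to 96.0%). The ratio of Mir132 to Mir212 was 18.2 (13.8 to 24.4) and 19.0 (15.3 to 23.8). The log2 change of this ratio from replicate 1 to replicate 2 was 0.06, with an exact interval of -0.47 to 0.58. At the depth of Mir212, any change within that interval is compatible with the counts. The summed level of both hairpins, all arms included, was 513 and 554 CPM.

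Mir182, Mir96 and Mir183 lie on the minus strand of chromosome 6, at positions 30165918 to 30165992, 30169446 to 30169551 and 30169668 to 30169737. In the direction of transcription Mir183 comes first, Mir96 follows after 116 bases and Mir182 after another 3453. No other gene of the GENCODE annotation overlaps them, while RefSeq places the noncoding gene Mirc35hg over all of them, at positions 30158640 to 30174125 and on the same strand. The gene nearest to the start of that transcript was the middle one by level, and Mir96, between its neighbours, was the lowest.

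Mir182 made up 90.9% of the cluster's 2923 counts in replicate 1 (exact 95% interval 89.8 to 91.9%) and 89.1% of its 3236 counts in replicate 2 (88.0 to 90.2%). Mir183 made up 8.69% (7.69 to 9.77%) and 10.1% (9.09 to 11.2%), and Mir96 0.411% (0.212 to 0.716%) and 0.773% (0.501 to 1.14%). All 3 pairs of intervals overlap, but overlap alone does not show that shares are equal, and the change in shares was not tested. The summed level of the cluster was 1445 and 1008 CPM.

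The ratio of Mir182 to Mir183 was 10.5 (9.19 to 11.9) in replicate 1 and 8.82 (7.86 to 9.92) in replicate 2, a log2 change of -0.25 (exact 95% interval -0.50 to 0.01). The ratio of Mir183 to Mir96 was 21.2 (11.9 to 41.5) and 13.1 (8.70 to 20.5), a log2 change of -0.69 (-1.85 to 0.39). Mir182 exceeded Mir96 by 221-fold (127 to 429) and 115-fold (78.0 to 179), a log2 change of -0.94 (-2.07 to 0.11). Each of these intervals includes 0, and those that involve Mir96 are wide because of its 12 and 25 counts. The log2 ratios of the 3 genes spread over 0.88, of which Mir96 at one end accounted for all but 0.25.

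**Figure D3:**
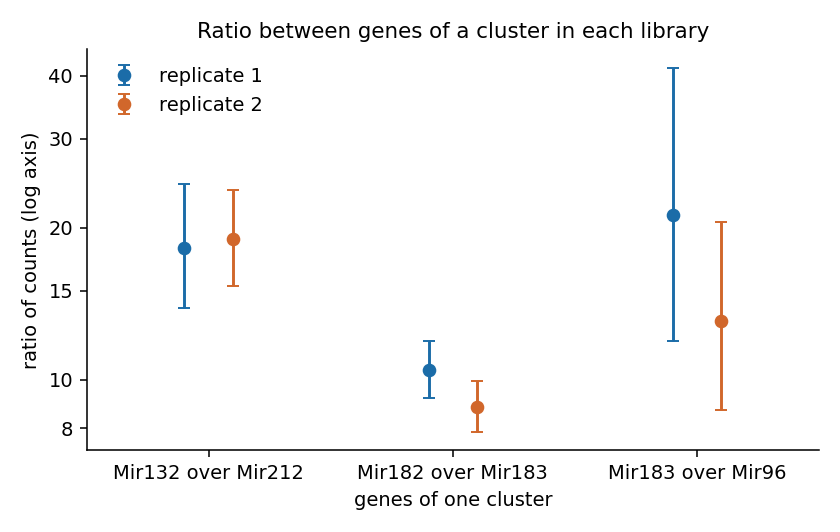
Ratio of counts between genes of a cluster (log axis) in replicates 1 and 2, with exact 95% intervals. The ratio of Mir132 to Mir212 is 18.2 and 19.0, and the intervals of both libraries overlap for each ratio.

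Other clusters give a measure of this agreement. A cluster was a run of same-strand microRNA genes spaced by under 10 kb, and the gap between the log2 ratios of neighbouring tested genes was computed. The gap was 0.06 for Mir132 and Mir212 and 0.25 for Mir182 and Mir183. Mir96 lies between Mir183 and Mir182 but was not tested, so Mir182 and Mir183 were taken as neighbours. The log2 ratio of Mir96, from 12 and 25 counts, was 0.88 above that of Mir182. Over the other 111 neighbour pairs the gap had a median of 0.78 and quartiles of 0.33 and 1.18. Of the 111 pairs, 10 (9.01%) had a smaller gap than Mir132 and Mir212, and 25 (22.5%) had a smaller gap than Mir182 and Mir183. Where the lower gene of a pair was at 100 CPM or less, as is Mir212, the median gap was 0.57 over 42 pairs, and above 100 CPM, as for Mir183, it was 0.81 over 69. The exact interval of the log2 change between Mir132 and Mir212, -0.47 to 0.58, reaches the median of 0.57, so the rank of this pair is uncertain. Some of the 111 pairs hold numbered gene copies that lose the reads they share, which the members are not, and the effect on the gaps was not tested. Pairs from 1 cluster are not independent, and no p was attached.

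**Figure D4:**
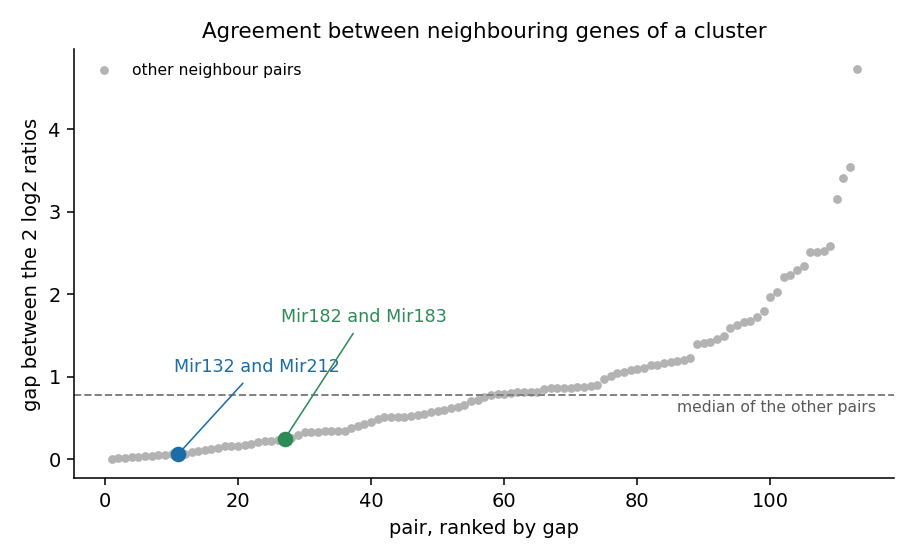
Gap between the log2 ratios of neighbouring tested genes of a cluster, ranked from smallest to largest, with the pairs of members in colour and the median of the other 111 pairs dashed. The gaps of 0.06 and 0.25 lie below the median of 0.78. Mir96, which lies between Mir182 and Mir183, was not tested and is left out.

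A leading gene with most of the counts was common in clusters. The leading gene took a median of 84.3% over 42 other clusters of measured genes, and 90% or more in 16 of them. Among 27 other clusters of 2 measured genes the median was 91.3%. The shares of Mir132 and Mir182 thus lay within the range of the leading genes of other clusters. Some of those clusters hold numbered gene copies, which lose the reads they share. No mature strand of the members recurred in another annotated microRNA transcript. The leading shares of the other clusters may therefore be distorted, and the size of this effect was not tested.

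Mir21a lies on the minus strand of chromosome 11, at positions 86584067 to 86584158, within the 3′ UTR of transcript Vmp1-201. It overlaps an exon in that 1 of 8 annotated transcripts of Vmp1, the gene of a membrane protein of autophagy. No microRNA gene was annotated on the opposite strand of any of the 6. Opposite-strand reads over them came to 2 in replicate 2, both at Mir21a, so strand-specific counting left their counts nearly unchanged.

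In RefSeq's table of 1005 hairpins, the members had no common composition. Mir212 had a GC content of 69.2%, higher than 96.9% of hairpins, and Mir132 one of 57.6%. The other 4 lay between 45.7% and 50.9%, against a median of 51.7% over all. The folding energy predicted by RNAfold was -0.56 kcal/mol per base for Mir132, lower than for all but 6.67% of hairpins, and -0.50 for Mir21a. It ranged from -0.46 to -0.37 for the other 4, with a median of -0.41 over all.

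The promoter window of Mirc35hg, from 250 bases before its start to 50 after, is shown because Mir183, Mir96 and Mir182 lie within that gene. It spans chr6:30174076-30174375 of GRCm38.p6 on the minus strand, and capitals mark its match to the letters TGANTCA, where N is any base.
Mirc35hg: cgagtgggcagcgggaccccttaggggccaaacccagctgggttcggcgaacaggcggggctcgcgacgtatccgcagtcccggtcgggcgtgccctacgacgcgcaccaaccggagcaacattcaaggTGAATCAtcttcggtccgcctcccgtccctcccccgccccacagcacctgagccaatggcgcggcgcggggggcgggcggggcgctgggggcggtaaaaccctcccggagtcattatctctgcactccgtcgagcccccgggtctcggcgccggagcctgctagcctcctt
Both strands were searched for the cyclic AMP response element TGACGTCA, its shorter core TGACG, the NR4A letters AAAGGTCA and TGANTCA, a loose form of the AP-1 letters. The letters TGANTCA occurred once, as TGAATCA at position -121 from the start, and 7.81% of all 32851 windows hold them. This is a match to the loose form only. The other letters were not in this window. They occur in 1.79%, 20.8% and 1.51% of all windows. Of the 3 Vmp1 windows, 1 held the shorter core once, at position -10 from its start. Whether the Vmp1 windows act on Mir21a was not tested. No window was available for 1700016P03Rik, so Mir132 and Mir212 were not covered by this search.

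MicroRNAs reported to fall with ACTH in rat adrenals are the counterpart of this group. Mir214 stood at 3057 and 914 CPM in replicates 1 and 2 (log2 ratio -1.69), Mir503 at 870.3 and 462 CPM (-0.86) and Mir27a at 636 and 559 CPM (-0.14). All 3 passed the exact test as lower in replicate 2, with a median of -0.86. Of all 329 genes tested, 36.5% were called lower, and no test was made of the list. The 8 copies of Mir466b had no counts, and their shared reads would have been left out. These 3 genes were thus above Mir183, Mir212 and Mir96 in both libraries and below Mir21a in both.

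Of 7 other microRNA genes linked to adrenal steroid synthesis, all were tested, 3 were higher in replicate 2, 3 were lower and 1 did not pass (median log2 ratio -0.11). Over all genes tested, 37.7% were called higher and 36.5% lower. Mir10b (7675 and 21089 CPM, log2 ratio 1.51), Mir34c (250 and 1376 CPM, 2.51) and Mir125b-2 (199 and 267 CPM, 0.47) were higher. Mir125a (7747 and 4239 CPM, -0.82), Mir24-1 (86.5 and 66.1 CPM, -0.34) and Mir24-2 (194 and 84.1 CPM, -1.15) were lower. Mir125b-1 stood at 445 and 398 CPM (-0.11). The numbered copies of Mir24 and Mir125b lost the reads they share, so their values are uncertain.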

How the data were processed

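Each library's deposited table gives unnormalized read counts for microRNA genes on build mm10 with the GENCODE M21 annotation, per the text the authors deposited beside it. Sources used here do not name the aligner or counter. Reads of the CAST/EiJ allele were compared with a C57BL/6J reference, and the effect of this was not tested. The 4 summary lines stayed out of totals, and all 2202 identifiers matched M21. Counts on the strand of the gene gave CPM over all microRNA genes. Library sizes for ratios were TMM-scaled with edgeR 4.0.16, and size factors of DESeq2 1.42.0 were an alternative. The exact conditional binomial test across all genes and exact Clopper-Pearson 95% intervals were computed with SciPy 1.17.1 in Python 3.11.15. Folding energies were computed with RNAfold 2.7.2. The exact test was first tried on simulated counts with counting error only, which cannot show how it behaves with variation between animals. The intervals cover counting error only. The p-values measure only the spread between these 2 libraries beyond counting error, which may be technical.

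The members, the lists and the rule for named genes were chosen with earlier results of these data known. Named were the members, the 2 pathway lists, genes sharing a seed, the 3 genes nearest in level, and the leading gene of each marker list. Mir21b, Mir128-1, Mir146b and Mir124a were named after their values were seen.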

Additional observations from a re-analysis of the deposited data

How the results depend on the processing

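With all reads of a library as the denominator, mean levels were 192 for Mir132, 10.3 for Mir212, 43.2 for Mir183, 2.60 for Mir96, 420.2 for Mir182 and 3214 CPM for Mir21a. Counted irrespective of strand they were 683, 36.8, 155, 9.20, 1515 and 11177 CPM, because reads ambiguous between strands left the total. Without Mir126a in the total, Mir132 stood at 572 and Mir212 at 30.8 CPM. The order of the 6 genes is not affected by a denominator. The log2 ratio of Mir132 missed the threshold with unscaled totals (0.12) and with all reads as library size (0.084). That of Mir183 passed with unscaled totals (-0.30), all reads (-0.32), counts irrespective of strand (-0.27), a floor of 100 CPM (-0.25, over fewer genes) and totals without Mir126a (-0.51). The last setting, chosen after the data were seen, turned the ratios of Mir132 (-0.10) and Mir212 (-0.15), with 91 genes called higher and 167 lower in place of 124 and 120. Mir21a and Mir182 kept direction and call under each scaling, filter and pseudocount tried, with log2 ratios of 1.19 to 1.48 and -0.76 to -0.47. The count of members detected was 4 to 6, and of members called 3 or 4. Without a filter, 247 of 790 genes were called. Within the clusters, the spreads moved between 0.06 and 0.08 for the pair and between 0.67 and 0.93 for the 3 genes. Mir212 was not tested at a floor of 100 CPM. Without replicate 1 or 2 a ratio between the libraries cannot be computed. No paired analysis was possible because the samples form 1 group. The depth of Mir96 and Mir212 limits what can be said of their ratios.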
